A study of Sus scrofa with 5 samples.

Results

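The 10 genes described here encode auxiliary subunits of voltage-gated calcium channels: the α2δ subunits CACNA2D1, CACNA2D2 and CACNA2D3, the β subunits CACNB2, CACNB3 and CACNB4, and the γ subunits CACNG2, CACNG3, CACNG4 and CACNG5. They were chosen by name, and all 10 were rows of a table of 30477 genes from nuclei of pig dorsal root ganglion, the ganglion that holds the cell bodies of sensory neurons. Levels were compared across nuclei grouped by 8 marker genes of sensory neuron classes, TRPM8, IL31RA, GFRA2, ADCYAP1, KIT, NTRK2, NTRK3 and PVALB. The study set out to profile the kinds of sensory neurons in the pig.

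In voltage-gated calcium channels, a pore-forming α1 subunit conducts the current, and auxiliary subunits set how many channels reach the membrane and how they open. Cytoplasmic β subunits bind the pore and favour its surface expression and gating, and the largely extracellular α2δ subunits promote trafficking of channels to presynaptic terminals. Gabapentin and pregabalin, drugs used for neuropathic pain, bind the proteins of CACNA2D1 and CACNA2D2 and not that of CACNA2D3. The γ subunits studied here are better known as transmembrane AMPA receptor regulatory proteins, which traffic AMPA-type glutamate receptors and shape their gating; CACNG2 encodes stargazin.

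Ganglia came from 5 male Landrace pigs, thoracic and lumbar levels, 80 mg of tissue per sample, and neither a treatment nor an age was given. Preparations differed in detergent (IGEPAL CA-630 in some, Triton X-100 in others) and in how nuclei were separated or enriched for the neuronal protein NeuN. No label tied a nucleus to a pig, so the table was 1 pooled sample of 2189 nuclei in 6 libraries, nuclei were not replicates, and no test over animals could be made. Every interval below is a 95% interval that covers counting error alone.

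Nuclei carried 501 to 338372 unique molecular identifiers (UMIs; median 4565, 17277376 in all), and libraries shared 0 barcodes. Clustering without the 10 genes and their partner list gave 22 clusters, each placed with the marker most raised in it. The groups held 416 (TRPM8), 191 (IL31RA), 266 (GFRA2), 662 (ADCYAP1), 185 (KIT), 123 (NTRK2), 165 (NTRK3) and 181 (PVALB) nuclei. Each marker was highest in its own group, from 248 CPM (UMIs scaled to 1000000 per group) for ADCYAP1 to 1616 CPM for IL31RA, and all 8 listed neuronal genes were present in every group.

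Some libraries stood apart. Cluster 0, with 291 of the TRPM8 group's nuclei, was shallow, with a median of 1437 UMIs, and 289 of its nuclei came from library 1. Of the NTRK2 group's 123 nuclei, 94 came from library 3, so this group had a value within that library only. In the NTRK3 group, the 29 nuclei of library 5 went against the group's name, with 1952 CPM of NTRK2 and 214 CPM of NTRK3. In the PVALB group, library 4 had 511 CPM of NTRK2 and 446 CPM of PVALB. In the KIT group, library 3 had 520.1 CPM of NTRK2 and 309.9 CPM of KIT, and clusters 5 and 16 held more NTRK2 than KIT. In the ADCYAP1 group, libraries 5 and 6 had 249 and 324 CPM of IL31RA, against 116 and 103 CPM of ADCYAP1; clusters had been placed by how far a marker was raised and not by its level. Results are given without a library or cluster where leaving it out changed the call of a ratio printed here. Mitochondrial UMIs made up 0.0709% to 24.3% of a library, and 20.4% of the NTRK2 group's UMIs against 0.548% of the NTRK3 group's. Genes of at least 100 kb took 25.4% of non-mitochondrial UMIs in the PVALB group, against 35.4% to 51.6% in the other groups. All 5 listed satellite glial genes had UMIs in every group, and their summed level ranged from 353 CPM in the KIT group to 1388 CPM in the TRPM8 group and 2715 CPM in the PVALB group. The part of these differences in the levels below was not tested.

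**Figure D1:**
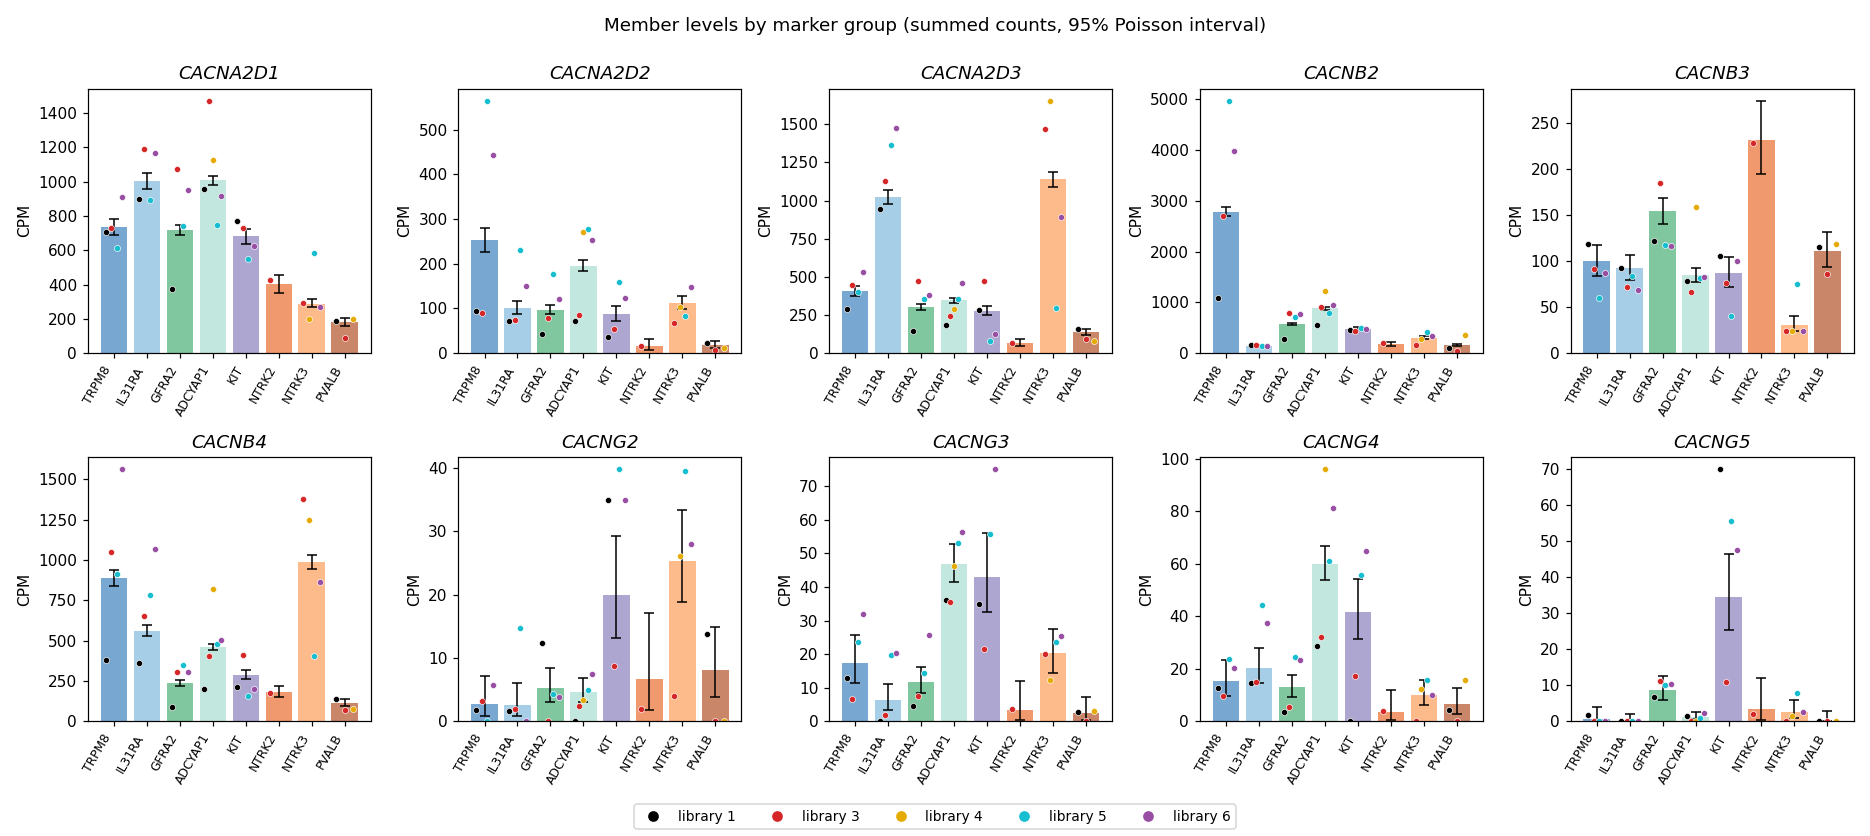
CPM of each of the 10 genes (y axis, linear, own scale per panel) in the 8 marker groups (x axis). Bars are summed counts over summed totals, error bars the 95% Poisson interval, and points the libraries with at least 10 nuclei in the group; CACNB2 stands at 2789 CPM in the TRPM8 group and CACNG5 at 34.6 CPM in the KIT group.

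The α2δ genes divided the neuron classes differently. CACNA2D1 (chr9:97781057-98265925, build Sscrofa11.1), whose protein is the main gabapentinoid target, was higher in each group marked by C-fibre and thermal genes than in each marked by touch and proprioceptor genes. Its level was 735 CPM in the TRPM8 group, 1004 in IL31RA, 718 in GFRA2, 1009.8 in ADCYAP1, 681 in KIT, 402 in NTRK2, 289 in NTRK3 and 181 in PVALB. The order from the top was ADCYAP1, IL31RA, TRPM8, GFRA2, KIT, NTRK2, NTRK3 and PVALB. Within it, ADCYAP1 and IL31RA did not differ beyond counting error, nor did TRPM8 and GFRA2, or GFRA2 and KIT, whereas the 3 touch groups each stood below the group before them. Clusters within groups crossed this order. Cluster 12 of the NTRK2 group had 708 CPM (563 to 879) and cluster 14 had 329 CPM (279 to 384), and cluster 1 of the GFRA2 group had 398 CPM (363 to 435). The ADCYAP1 group was 5.58-fold above the PVALB group (interval 4.88 to 6.41). Among nuclei with at least 5000 UMIs, the median nucleus had 882 CPM in the ADCYAP1 group and 141 CPM in the PVALB group, so the difference was seen in the typical well-covered nucleus as well as in the sum. Which of ADCYAP1 and IL31RA came first changed with the processing, and ADCYAP1 led under 12 of 19 alternatives.

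CACNA2D2 (chr13:32845110-32988851), the other gabapentinoid-binding member, had lower counts and the division of CACNA2D1 only in part: NTRK3 was not below IL31RA, GFRA2 and KIT. Its level was 252 CPM in the TRPM8 group, 102 in IL31RA, 97.2 in GFRA2, 196 in ADCYAP1, 87.8 in KIT, 16.8 in NTRK2, 112 in NTRK3 and 17.8 in PVALB. The NTRK2 and PVALB groups were near the bottom together and did not differ, while NTRK3, IL31RA, GFRA2 and KIT followed each other without a difference between neighbours beyond counting error. The TRPM8 group was 15.03-fold above the NTRK2 group (8.08 to 31.6). Libraries differed widely for this gene. In the TRPM8 group it had 93.2 and 90.8 CPM in libraries 1 and 3, against 564 and 443 CPM in libraries 5 and 6. In the ADCYAP1 group it had 70.9 and 86.0 CPM in the first pair of libraries, against 278 and 254 CPM in the second. Libraries 1 and 3 were thus the low ones in both groups, and the part of library preparation in this was not tested.

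CACNA2D3 (chr13:36222295-37025119), the α2δ member outside gabapentinoid binding, had another pattern, with peaks on both sides. It had 409 CPM in the TRPM8 group, 1025 in IL31RA, 299 in GFRA2, 345 in ADCYAP1, 278 in KIT, 65.4 in NTRK2, 1139 in NTRK3 and 135 in PVALB. NTRK3 was 1.11-fold above IL31RA (1.05 to 1.18), and IL31RA was 2.51-fold above TRPM8, the next group (2.29 to 2.75). The NTRK2 group was lowest, 17.4-fold below NTRK3 (12.7 to 24.6). In the IL31RA group every library was high, from 945 to 1478 CPM. In the NTRK3 group libraries 3, 4 and 6 had 1469, 1652 and 893 CPM, and library 5, whose nuclei carried NTRK2, had 293 CPM. One nucleus of library 4 held 424 of the gene's 8258 UMIs. NTRK3 came first under 13 of 19 alternatives and IL31RA under the others, among them leaving out nuclei above 50000 UMIs, library 2 or library 4.

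The α2δ UMIs were accordingly shared out differently. CACNA2D3 made up 73.9% of them in the NTRK3 group (72.3% to 75.5%) and 48.1% in the IL31RA group, against 13.5% in the NTRK2 group and 22.3% in the ADCYAP1 group. CACNA2D1 made up 83.0% in the NTRK2 group, 65.1% in the ADCYAP1 group and 65.0% in the KIT group, and 18.8% in the NTRK3 group. Shares like these can be set side by side between groups, but a share of one gene against another also depends on how well each transcript is captured.

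**Figure D2:**
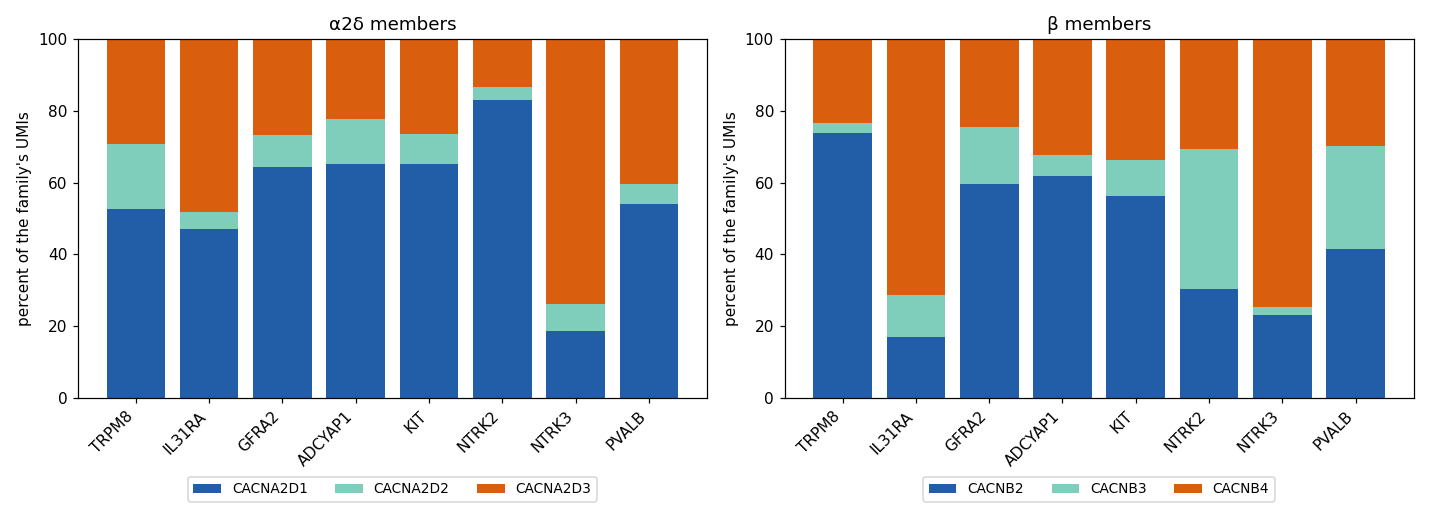
Share of the α2δ members' UMIs (left) and of the β members' UMIs (right) taken by each gene (y axis, percent) in the 8 marker groups (x axis). CACNA2D3 takes 73.9% of α2δ UMIs and CACNB4 74.7% of β UMIs in the NTRK3 group, and CACNB2 73.9% of β UMIs in the TRPM8 group.

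Among the β genes, CACNB2 (chr10:44321954-44887410) had the widest range of the 6 α2δ and β members and marked the TRPM8 group. Its level was 2789 CPM in TRPM8, 134 in IL31RA, 573 in GFRA2, 881 in ADCYAP1, 483 in KIT, 181 in NTRK2, 305 in NTRK3 and 161 in PVALB. The TRPM8 group was 3.16-fold above ADCYAP1, the next group (3.04 to 3.30), and 20.8-fold above IL31RA, the lowest (18.3 to 23.7). NTRK2, PVALB and IL31RA followed each other at the bottom without a difference between neighbours beyond counting error. Within each of the 4 libraries with a TRPM8 group value, that group was the highest, with 1093 CPM (library 1), 2698 CPM (3), 4965 CPM (5) and 3985 CPM (6). The lowest of these belonged to library 1, which holds the shallow cluster. By cluster, the level was 796 CPM in cluster 0, 2698 in cluster 15 and 4517 in cluster 6. Cluster 7 of the ADCYAP1 group, in which TRPM8 was the marker raised most after ADCYAP1, had 1512 CPM. In well-covered nuclei of the TRPM8 group the median was 3129 CPM, with quartiles of 1655 and 4764 CPM. This gene was highest in the TRPM8 group under 19 of 19 alternatives.

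CACNB3 (chr5:14875524-14888224) had the smallest ratio of highest to lowest group among the β genes, 7.48 (5.50 to 10.3). It had 99.6 CPM in TRPM8, 92.1 in IL31RA, 154 in GFRA2, 84.7 in ADCYAP1, 87.0 in KIT, 231 in NTRK2, 30.9 in NTRK3 and 111 in PVALB. NTRK2 and GFRA2 came first and NTRK3 last. In the order PVALB, TRPM8, IL31RA, KIT and ADCYAP1 between them, no neighbours differed beyond counting error. One nucleus of library 2 held 115 of the GFRA2 group's 495 UMIs. The high value of the NTRK2 group came from cluster 14, at 270.4 CPM, and not from cluster 12 of the same group, at 69.1 CPM. NTRK2 came first under 16 of 19 alternatives.

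CACNB4 (chr15:402801-455691) resembled CACNA2D3 in the NTRK3 and NTRK2 groups and CACNB2 in the TRPM8 group. Its level was 888 CPM in TRPM8, 561 in IL31RA, 235 in GFRA2, 459 in ADCYAP1, 289 in KIT, 183 in NTRK2, 989 in NTRK3 and 115 in PVALB. All neighbours in the order NTRK3, TRPM8, IL31RA, ADCYAP1, KIT, GFRA2, NTRK2 and PVALB differed beyond counting error, although the first step was 1.11-fold (1.04 to 1.20). The TRPM8 group came first in libraries 1, 5 and 6 and the NTRK3 group in library 3. Library 1 had 6 nuclei of the NTRK3 group, too few for a value, and those of library 5 carried more NTRK2 than NTRK3. TRPM8 took first place without library 1, without library 4 or without cluster 0. In library 5 the NTRK3 group had 404 CPM, against 862 to 1380 CPM in its other libraries. Clusters 7 and 6, of the ADCYAP1 and TRPM8 groups, had 1294 and 1290 CPM.

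**Figure D3:**
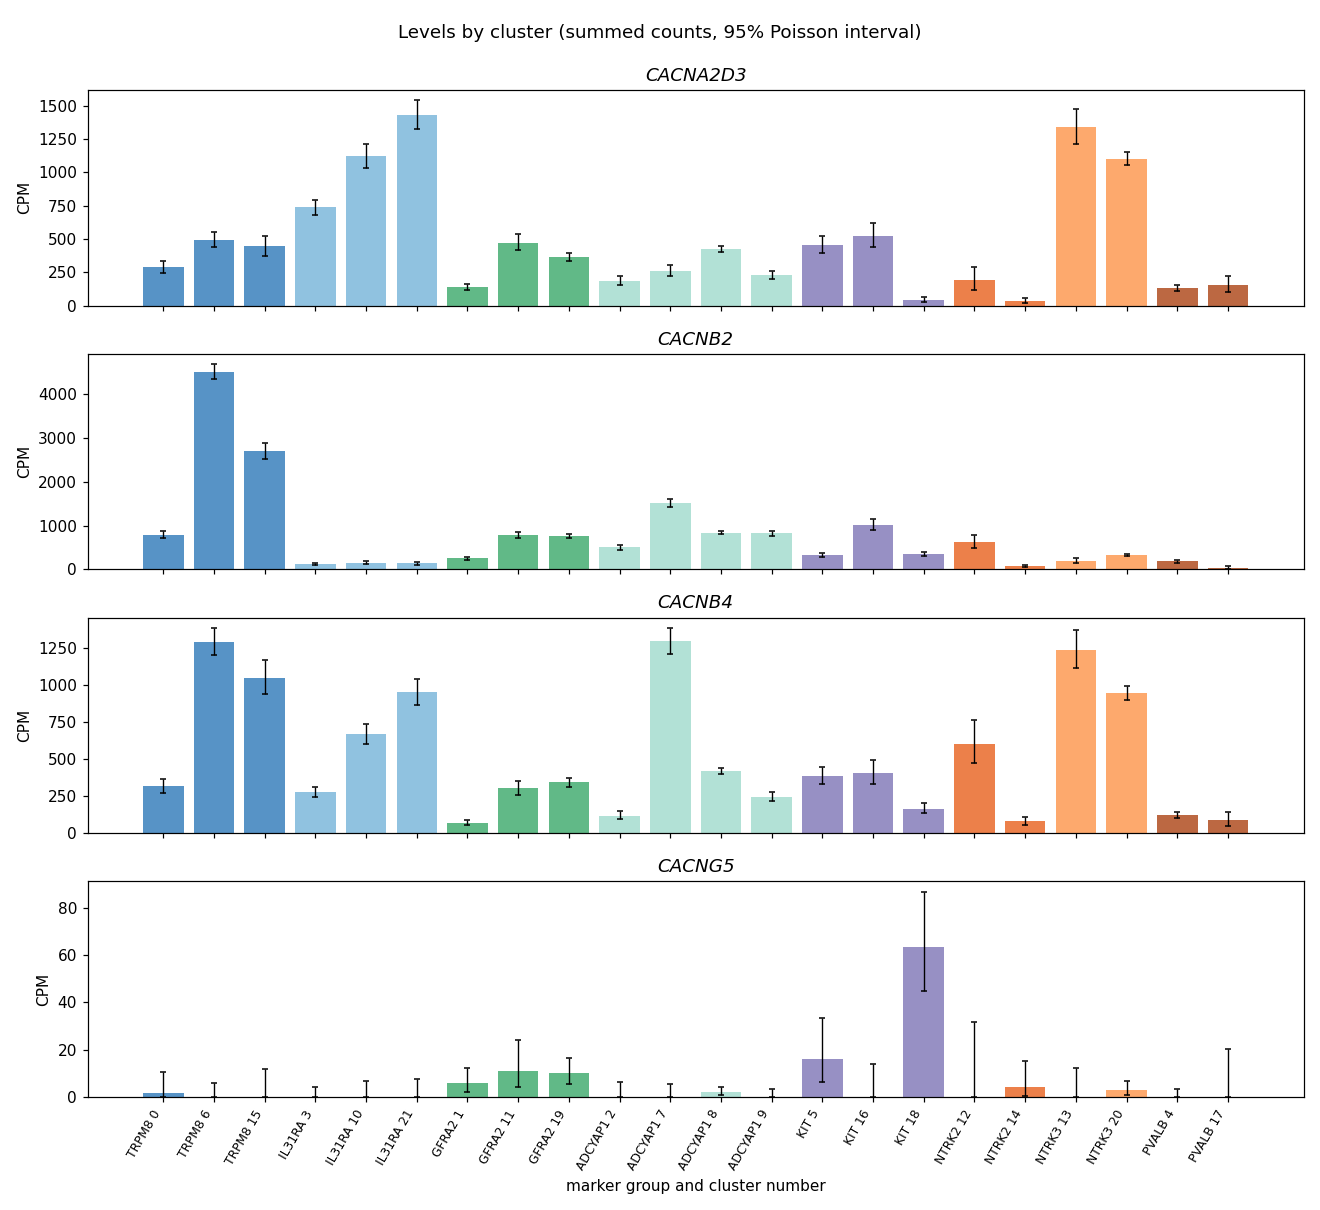
CPM of CACNA2D3, CACNB2, CACNB4 and CACNG5 (y axes, linear) in each of the 22 clusters (x axis), ordered and coloured by marker group, with 95% Poisson intervals. Groups are not uniform: CACNB2 ranges from 796 to 4517 CPM over the TRPM8 clusters, CACNB4 from 81.1 to 605 CPM over the NTRK2 clusters, and CACNG5 reaches 63.2 CPM in cluster 18.

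β composition followed. CACNB2 took 73.9% of β UMIs in the TRPM8 group (72.7% to 75.02%) and 61.8% in the ADCYAP1 group. CACNB4 took 74.7% in the NTRK3 group and 71.3% in the IL31RA group, the same pair in which CACNA2D3 was high. CACNB3 took 38.9% in the NTRK2 group and 28.7% in the PVALB group, against 2.34% in the NTRK3 group.

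Over 25 marker groups within libraries, each of at least 20 nuclei, log2 levels of CACNA2D3 and CACNB4 had the highest correlation of any pair of members (Pearson's r = 0.82), followed by CACNG3 and CACNG4 (0.78) and by CACNA2D2 with CACNB4 (0.70). The points share libraries and depth, so these values describe the table and carry no test.

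**Figure D4:**
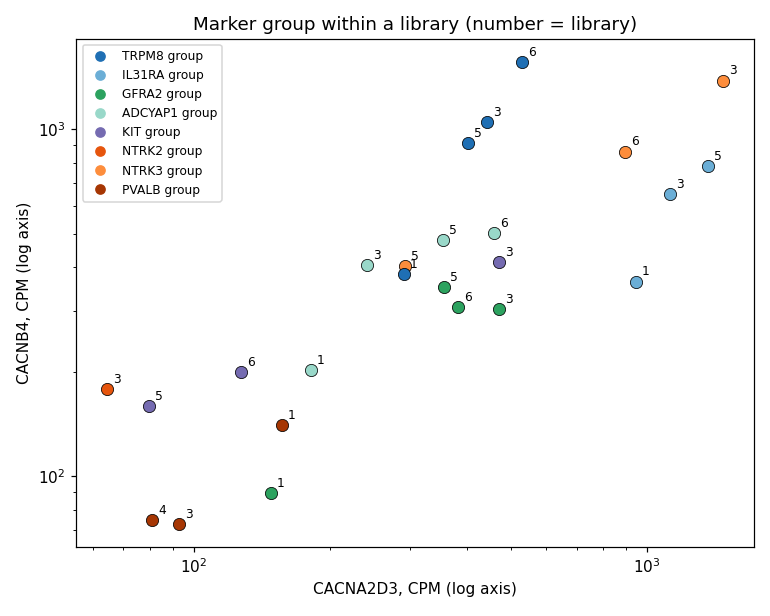
CPM of CACNB4 (y axis, log scale) against CACNA2D3 (x axis, log scale) for the 25 marker groups within a library, coloured by group and numbered by library. The NTRK3 group of libraries 3 and 6 and the IL31RA groups lie at the right, the NTRK3 group of library 5 lies among the C-fibre groups at 293 CPM of CACNA2D3, and the TRPM8 groups of libraries 3, 5 and 6 lie above the rest at 403 to 530.4 CPM of CACNA2D3.

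The γ genes were sparse, with 88 to 524 UMIs each over all nuclei, against 1738 to 12869 UMIs for the α2δ and β genes. Per kb of gene, introns included, the γ genes had 0.0694 to 0.478 CPM and the α2δ and β genes 0.595 to 9.04 CPM. In nuclei with at least 5000 UMIs the median level of every γ gene was 0 in every group. CACNG3 (chr3:21855847-21961191) and CACNG4 (chr12:13391080-13454542) were both highest in the ADCYAP1 group and next in KIT. CACNG3 had 17.4 CPM in TRPM8, 6.28 in IL31RA, 11.8 in GFRA2, 46.9 in ADCYAP1, 43.1 in KIT, 3.35 in NTRK2, 20.3 in NTRK3 and 2.43 in PVALB. CACNG4 had 15.3 CPM in TRPM8, 20.4 in IL31RA, 13.05 in GFRA2, 60.1 in ADCYAP1, 41.6 in KIT, 3.35 in NTRK2, 10.1 in NTRK3 and 6.49 in PVALB. For CACNG3 the ADCYAP1 and KIT groups did not differ; for CACNG4 ADCYAP1 was 1.44-fold above KIT (1.08 to 1.96). Below those groups no neighbours differed for either gene.

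CACNG5 (chr12:13288510-13328811), which lies beside CACNG4 on the chromosome, did not share its pattern. It had 34.6 CPM in the KIT group, 8.70 in GFRA2, 3.35 in NTRK2, 2.53 in NTRK3, 1.25 in ADCYAP1 and 0.70 in TRPM8. It had 0 UMIs in the IL31RA and PVALB groups, where a limit of 3 counts comes to 1.57 CPM in IL31RA and 2.43 CPM in PVALB. The KIT group held 45 of its 88 UMIs and was 3.98-fold above GFRA2 (2.43 to 6.63). In libraries 5 and 6 the level of the KIT group was 55.7 and 47.5 CPM, and in library 3 it was 10.8 CPM. In library 1 it was 70.0 CPM (8.48 to 253), from 2 UMIs in 10 nuclei. Within the KIT group, cluster 18 had 63.2 CPM (44.7 to 86.7), cluster 5 had 16.2 CPM and cluster 16 had 0. Cluster 18 also carried TRPM8 above its expected level, by 1.57 on the log2 scale. One nucleus of library 4 held 12 of the UMIs. The GFRA2 group's lower level was alike in its libraries, from 6.78 to 11.07 CPM.

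CACNG2 (chr5:11067016-11185480), with 142 UMIs, had 2.79 CPM in TRPM8, 2.62 in IL31RA, 5.28 in GFRA2, 4.63 in ADCYAP1, 20.02 in KIT, 6.71 in NTRK2, 25.3 in NTRK3 and 8.11 in PVALB. The top pair, NTRK3 and KIT, did not differ beyond counting error. The NTRK3 value did not come from the nuclei with most NTRK3. Of the group's 50 UMIs, 49 were in cluster 20, whose nuclei were then divided, after the data were seen, by which of NTRK2 and NTRK3 had more UMIs. The 28 nuclei with more NTRK2 had 101 CPM of CACNG2 (72.3 to 137), and the 45 nuclei with more NTRK3 had 6.37 CPM (2.75 to 12.6). Of the 28, 10 had a CACNG2 UMI and 16 came from library 5. A single nucleus of library 4 held 17 of their 41 UMIs, and without it the level was 64.5 CPM. The same 28 nuclei had 275 CPM of CACNA2D3 and 329 CPM of CACNB4, against 1375 and 1139 CPM in the nuclei with more NTRK3, and 597 CPM of CACNA2D1, against 190 CPM.

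The groups were next compared as sides, to ask whether auxiliary subunits differ between C-fibre and thermal classes (TRPM8, IL31RA, GFRA2 and ADCYAP1) and touch and proprioceptor classes (NTRK2, NTRK3 and PVALB). A ratio was called when it was at least 2-fold, its interval excluded 1 and both sides together had at least 50 UMIs. Of 9 members with enough UMIs, 5 were called higher and 1 lower, where 5.87% of all 13093 genes were called higher, 8.32% lower and 14.2% in either direction. The median log2 ratio was 1.23 over the 9 members and -0.07 over all genes.

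CACNA2D1 averaged 899 CPM on the C-fibre and thermal side and 272 CPM on the touch side, 3.31-fold higher (3.102 to 3.53). CACNA2D2 had 162 CPM against 66.5 CPM, 2.43-fold higher (2.13 to 2.78). Both genes whose proteins bind gabapentinoids were thus higher on the C-fibre and thermal side, and each was above 0 on the log2 scale in 5 of 5 libraries with both sides. The touch side was made up differently in each library, so these are not repeats of 1 contrast. In library 1 it held 110 PVALB, 5 NTRK2 and 6 NTRK3 group nuclei, and in library 5 it held 1, 1 and 29. CACNB2 had 907 CPM against 239 CPM, 3.80-fold higher (3.55 to 4.07). CACNG4 had 36.1 CPM against 7.89 CPM, 4.58-fold higher (3.16 to 6.87). CACNG3 had 27.8 CPM against 11.8 CPM, 2.35-fold higher (1.71 to 3.28). These γ genes, too, were higher on the C-fibre and thermal side in 5 of 5 libraries. By group, CACNA2D1 and CACNG4 were higher in each C-fibre and thermal group than in each touch group. The other called genes crossed the sides. CACNB2 had 134 CPM in IL31RA, against 161 to 305 CPM in the touch groups. CACNA2D2 had 112 CPM in NTRK3, against 102 in IL31RA and 97.2 in GFRA2. CACNG3 had 20.3 CPM in NTRK3, against 17.4 in TRPM8, 11.8 in GFRA2 and 6.28 in IL31RA. Some of these steps were within counting error. CACNG2 ran the other way, with 4.27 CPM against 16.8 CPM, 3.94-fold lower (2.69 to 5.80), and was lower in 4 of 4 libraries. Much of its touch-side level came from the 28 nuclei of cluster 20 with more NTRK2 than NTRK3. They held 41 CACNG2 UMIs, 17 of them in a single nucleus of library 4. The whole NTRK3 group had 50 UMIs, the PVALB group 10 and the NTRK2 group 4. The 45 nuclei of cluster 20 with more NTRK3 had 6.37 CPM. The side ratio without the 28 nuclei was not tested.

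CACNA2D3, CACNB3 and CACNB4 were not called. CACNA2D3 had 447 CPM on the C-fibre and thermal side and 645 CPM on the touch side, a ratio of 0.69 (0.66 to 0.73). Its log2 ratio within libraries ran from -1.73 to 1.03 and was above 0 in 3 of 5. The touch side joins the NTRK3 group, at 1139 CPM, with the NTRK2 and PVALB groups, at 65.4 and 135 CPM. Its makeup differed between libraries, and the part of this in the spread was not tested. CACNB4 had a ratio of 0.81 (0.77 to 0.85) and CACNB3 one of 1.20 (1.06 to 1.36). CACNG5 had 43 UMIs on both sides together, under the minimum. All 6 calls held without any 1 library. After every nucleus was thinned to 1000 UMIs, the calls of CACNG2, CACNG3 and CACNG4 were lost, each then with under 50 UMIs. CACNG2 was also not called as a mean over nuclei (log2 ratio -0.88), and CACNG3 not when each nucleus was grouped by its own markers (0.96).

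**Figure D5:**
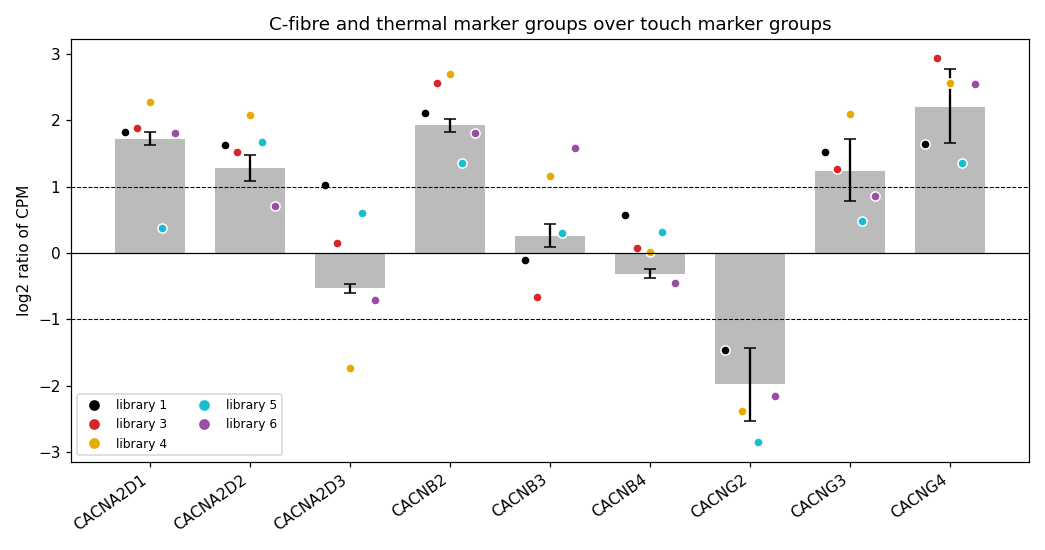
Log2 ratio of CPM (y axis), C-fibre and thermal marker groups over touch marker groups, for the 9 members with at least 50 UMIs (x axis). Bars are pooled ratios with 95% intervals, points are libraries and dashed lines mark 2-fold; CACNA2D1, CACNA2D2, CACNB2, CACNG3 and CACNG4 are above 0 in 5 of 5 libraries, and CACNA2D3 in 3 of 5. The makeup of the touch side differs between libraries.

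Other genes of the channel and its partners were counted by the same rule. Of 7 pore subunits with enough UMIs, 3 were higher and 2 lower on the C-fibre and thermal side. The 2 with the largest higher ratios were CACNA1I, a T-type pore, at 15.5 CPM against 2.37 CPM (6.56-fold, 3.38 to 14.6), and CACNA1C, an L-type pore, at 481 CPM against 115 CPM (4.16-fold, 3.78 to 4.60). CACNA1I had 52.5 CPM in the GFRA2 group and at most 3.55 CPM in any other. CACNA1A, the P/Q-type pore, had 116 CPM against 271 CPM, 2.33-fold lower. Of 8 AMPA receptor genes and partners, 0 were higher and 1 was lower: GRIA4, a receptor subunit, at 75.7 CPM against 414 CPM, 5.47-fold lower. None of the 3 other auxiliary subunits tested was called, and of the 9 α2δ partners 1 was higher, RIMS2, an active zone protein, at 922 CPM against 436 CPM. SLC7A5 and SLC3A2, which form a transporter that carries gabapentinoids, were not called.

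Each group was then set against the other 7. Of 80 pairs of a member and a group, 43 were called (53.8%), 13 higher and 30 lower, beside 19.8% of 106432 such pairs over all genes. Of the 43 calls, 32 held without each of the 6 libraries in turn. By role, 8 of 9 α2δ calls held, 11 of 12 β calls and 13 of 22 γ calls.

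In the TRPM8 group 3 members were higher and 3 lower, against 2.01% and 5.07% of 13304 genes (7.08% in either direction). CACNB2 was 5.15-fold higher (4.96 to 5.35), and 20 of the 13304 genes had a larger ratio. CACNA2D2 and CACNB4 were near the limit, 2.02-fold and 2.01-fold higher. CACNA2D2 fell under it without library 2, 4, 5 or 6, with log2 ratios of 0.92 to 0.98, and without cluster 16 (0.99). It lost its call under 10 of 19 alternatives, down to 0.25 as a mean over nuclei. CACNB4 fell under it without library 2, 3 or 6, with 0.75 to 0.97, and down to 0.39 after thinning.

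In the IL31RA group 1 member was higher and 4 were lower, against 3.37% and 16.3% of genes (19.7% in either direction). CACNA2D3 was 2.50-fold higher (2.38 to 2.63), and CACNB2 was 5.99-fold lower (5.29 to 6.80). Both directions were seen in 4 of 4 libraries. The CACNB2 call was lost at resolutions 0.5 (log2 ratio -0.55) and 1.5, with nuclei grouped by their own markers and with libraries clustered alone, and the CACNA2D3 call at resolution 0.5 (0.48). In the GFRA2 group 1 member was higher and 3 were lower, against 2.97% and 7.4% of genes (10.4% in either direction). CACNB4 there was 2.27-fold lower (2.10 to 2.44), and lower in 4 of 4 libraries, but was not called without nuclei above 50000 UMIs (log2 ratio -0.97) or under any of the 4 other groupings, where it reached -0.59. CACNG5 was 2.04-fold higher in the GFRA2 group, and missed the limit without library 1 (log2 ratio 0.95), library 3 (0.69), cluster 0 or cluster 16 (1.00 each, just under 2-fold).

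In the ADCYAP1 group 2 members were higher and 2 lower, against 2.94% and 7.97% of genes (10.9% in either direction). CACNG4 was 3.75-fold higher (3.12 to 4.50) and CACNG3 3.11-fold higher (2.56 to 3.78), each in 5 of 5 libraries, and 40 and 70 of the 13304 genes had a larger ratio. Cluster 8 held 251 of the group's 337 CACNG4 UMIs and 193 of its 263 CACNG3 UMIs, and had 300.5 CPM of IL31RA and 176 CPM of ADCYAP1. At resolution 0.5 both calls were lost, at log2 ratios of -0.38 for CACNG4, then highest in IL31RA, and 0.37 for CACNG3. In the KIT group 2 members were higher and 0 lower, against 4.25% and 11.4% of genes (15.6% in either direction). CACNG5 was 12.9-fold higher (8.28 to 20.03) and CACNG2 2.76-fold higher (1.73 to 4.25), each in 4 of 4 libraries. Library 1 is among these with 2 CACNG5 UMIs and 1 CACNG2 UMI in its KIT group nuclei. For CACNG5, 6 of the 13304 genes had a larger ratio.

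In the NTRK2 group 1 member was higher and 6 were lower, against 7.08% and 18.0% of genes (25.1% in either direction). Of genes of at least 100 kb other than the members, 2.83% were higher and 30.0% lower. The part of gene length in the NTRK2 values was not tested. CACNA2D2 was 8.31-fold lower (4.51 to 17.4), CACNA2D3 7.54-fold lower (5.51 to 10.6) and CACNB2 4.13-fold lower (3.42 to 5.04). For CACNB2 the clusters of the group differed, at 622 CPM (487 to 783) in cluster 12 and 74.9 CPM in cluster 14, and its call was lost with nuclei grouped by their own markers (log2 ratio -0.22) and at resolution 0.5. At that resolution CACNA2D2 and CACNA2D3 were not called either. CACNB3 was 2.41-fold higher (2.01 to 2.87). Its call was lost at resolution 0.5 (log2 ratio -0.49), with nuclei grouped by their own markers, with libraries clustered alone and after thinning. Without library 3, which held most of the group, the log2 ratio of CACNA2D2 was -2.44 in place of -3.06 and that of CACNB2 was -2.87 in place of -2.05. Where the cluster 20 nuclei with more NTRK2 were moved into the group, CACNB3 was not called, with a log2 ratio of 0.77. CACNA2D3 then stood at -1.73, CACNA2D2 at -1.49 and CACNB2 at -1.38, all still called, and CACNG2 was higher by 2.91.

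In the NTRK3 group 3 members were higher and 4 lower, against 13.3% and 18.4% of genes (31.7% in either direction). Of genes of at least 100 kb other than the members, 20.7% were higher and 5.11% lower. CACNA2D3 was 2.90-fold higher (2.76 to 3.04) and CACNB4 2.40-fold higher (2.28 to 2.52), in 3 of 4 libraries each, the exception being library 5. CACNB3 was 3.54-fold lower (2.74 to 4.65), CACNA2D1 2.78-fold lower (2.55 to 3.02) and CACNB2 2.57-fold lower (2.37 to 2.79), in 4 of 4 libraries. CACNG2 was 4.22-fold higher (2.93 to 6.01), but its log2 ratio was -0.55 once the cluster 20 nuclei with more NTRK2 were moved out. The PVALB group had 0 members higher and 8 lower, against 16.6% and 21.1% of genes (37.8% in either direction). CACNA2D2 was 8.08-fold lower there (5.32 to 12.9), CACNB2 4.81-fold lower (4.18 to 5.56) and CACNA2D1 4.36-fold lower (3.82 to 5.00), in 3 of 3 libraries. Without library 1 the log2 ratio of CACNA2D2 was -3.76 in place of -3.01, and without library 4 that of CACNB2 was -3.096 in place of -2.26. Long genes as a whole were also lower in this group, with a median log2 ratio of -0.75 over 2507 genes of at least 100 kb other than the members, against 0.14 over shorter ones. CACNB3, the shortest member at 12.7 kb, was not called, at 1.11-fold (0.93 to 1.33). The other members under 100 kb were called lower. Their log2 ratios were -1.17 for CACNG5 (40.3 kb), -2.135 for CACNB4 (52.9 kb) and -2.31 for CACNG4 (63.5 kb). CACNG2, at 118 kb, was not called (-0.02). The part of gene length in the PVALB values was not tested.

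The pore subunits of the wider list, 7 with enough UMIs, had 7 lower and 0 higher in the PVALB group, where 21.1% of all genes and 37.4% of long genes were lower, and 5 lower and 0 higher in the IL31RA group, where 16.3% and 26.6% were lower. In the NTRK3 group 4 were higher and 2 lower, and in the NTRK2 group 1 was higher and 4 lower. In TRPM8 2 were higher and 1 lower, in GFRA2 and in KIT 1 each way, and in ADCYAP1 0 were higher and 2 lower. Among the 8 AMPA receptor genes and partners, 3 were higher and 0 lower in NTRK3, 2 higher and 1 lower in TRPM8, 1 each way in ADCYAP1, and 1 higher and 2 lower in NTRK2. They had 0 higher in the other groups, with 5 lower in IL31RA, 4 in PVALB and 1 each in GFRA2 and KIT. Of the 10 α2δ partners, 6 were lower and 2 higher in PVALB and 4 lower in GFRA2, with at most 3 calls in any other group.

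Between the KIT and ADCYAP1 groups, 2 members were called higher in KIT and 1 lower, where 4.4% of 10648 genes were higher and 6.19% lower (10.6% in either direction). CACNG5 was 27.8-fold higher, at 34.6 CPM in KIT and 1.25 CPM in ADCYAP1 (12.4 to 73.0). It passed the minimum of 50 UMIs through the KIT group, with 45 UMIs there and 7 in ADCYAP1. CACNG2 was 4.32-fold higher, at 20.02 CPM against 4.63 CPM (2.41 to 7.74). Each rests on 52 UMIs. The CACNG5 log2 ratio was 4.52 to 5.59 without library 1, 3, 4, 5 or 6 or without nuclei above 50000 UMIs. That of CACNG2 was 1.98 to 2.33 without library 3, 4, 5 or 6 or without those nuclei. With under 50 UMIs neither was then called. CACNA2D2 was 2.23-fold lower, at 87.8 CPM in KIT and 196 CPM in ADCYAP1 (1.84 to 2.73), and its call was lost under 7 of 19 alternatives, with log2 ratios of -0.85 without cluster 16 and -0.04 at resolution 0.5. Of the wider list, 1 of 5 pore subunits with enough UMIs was higher in KIT (CACNA1A, 2.52-fold, 2.23 to 2.85). Of 8 AMPA receptor genes and partners, 1 was higher (GRIA4, 2.66-fold, 2.21 to 3.19) and 1 lower (GRIA3, a further receptor subunit, a ratio of 0.42). Of the α2δ partners 1 was higher, the presynaptic adhesion gene NRXN3, at 2282 CPM in KIT and 380.1 CPM in ADCYAP1 (6.003-fold, 5.68 to 6.35), and the other auxiliary subunits and transporter genes had 0 calls. These 4 genes are named because few were called, and were picked after their values were seen.

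The NTRK2 and NTRK3 groups, both on the touch and proprioceptor side, were also compared. Of 7 tested members 1 was higher in NTRK2 and 4 were lower, where 18.5% of 7441 genes were higher and 31.7% lower (50.2% in either direction). CACNB3 was 7.48-fold higher in NTRK2, at 231 CPM against 30.9 CPM in NTRK3 (5.50 to 10.3). CACNA2D3 was 17.4-fold lower, at 65.4 CPM against 1139 CPM (12.7 to 24.6), CACNA2D2 6.68-fold lower (3.57 to 14.1) and CACNB4 5.41-fold lower (4.46 to 6.62). Within library 3 the log2 ratios of these 4 genes were 3.13, -4.49, -2.13 and -2.95. Without library 3 the log2 ratio of CACNA2D2 was -2.03 in place of -2.74. At resolution 0.5 the calls of CACNA2D2, CACNA2D3 and CACNB4 were lost (-0.70, -0.81 and -0.82), and that of CACNA2D2 also with nuclei grouped by their own markers and with libraries clustered alone. With cluster 20 divided between the groups the calls of these 4 genes held, at log2 ratios of 2.96, -3.19, -1.19 and -2.26. CACNG2, lower in NTRK2 as first grouped (log2 ratio -1.92), was higher by 2.95 after that division. Its call was also lost without library 3 (0.61), 4 (-3.81), 5 (-1.79) or 6 (-1.77), and CACNA2D1 was called after the division (1.19). On the wider list 0 genes were higher in NTRK2. Called lower were 5 pore subunits, 4 AMPA receptor genes and partners, 2 α2δ partners, 1 other auxiliary subunit (CACNG7, at 15.1 CPM against 170 CPM) and 1 transporter gene, SLC3A2. Long genes were lower in the NTRK2 group, with a median log2 ratio of -0.92, against 0.01 for shorter genes.

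For each member with at least 500 UMIs, the genes with the most similar levels over the same 25 points were picked from 6176 genes. For CACNA2D1 they were EBF1 (r = 0.95), MARCHF1 (0.94) and GRM7 (0.93), for CACNA2D2 MDM4 (0.90), ELMO2 (0.89) and CFAP100 (0.88), and for CACNA2D3 CAMK1D, TMOD3 and SNAP47 (0.78 each). For CACNB2 they were HPSE2 (0.89), GRK3 (0.89) and FRMD4A (0.86), for CACNB3 OLFM1 (0.83), CCNI (0.81) and KCNC4 (0.77), and for CACNB4 KCNB2 (0.91), FGF14 (0.90) and KLHL29 (0.86). CACNG4 was most like MOB3B (0.92), followed by 2 rows without a symbol. Members were left out of this search.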

How the data were processed

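Nuclear RNA was counted with a 10x Genomics 3' kit, per the labels' protocols. Software was Cell Ranger 6.0.1 and Seurat, with the Sscrofa11.1 build, per the submitters' processing notes, which give no role for either tool. Raw UMI counts for 30477 genes in 2189 nuclei are the values that the authors deposited. No filter on nuclei before deposit is named in these sources. The endings of barcodes were read as 6 libraries (760816 to 4910023 UMIs), a technical batch only.

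No nucleus had under 200 genes and none was removed; no doublet caller was run. Counts were scaled to 10000 per nucleus and log-transformed, 2000 variable genes were taken and the members and partner lists removed, leaving 1989. Scanpy 1.11.5 then used 30 principal components, 15 neighbours and Leiden resolution 1.0. A cluster went to the marker with the highest log2 ratio of CPM over that expected from the other nuclei of its libraries (10 CPM added, at least 1). CPM were computed from summed counts with exact Poisson intervals, and ratios with exact conditional binomial intervals (scipy 1.17.1), which cover counting error only, since nuclei are not replicates. The ratio code was tested on simulated data. A count of 0 was set to 3 counts for a bound. The text names all 10 members, the 2 largest called ratios each way of a wider list in the first comparison, and the 3 genes most alike; RIMS2 was added after its value was seen. Members and lists were chosen with earlier results of these data known. Gene positions and lengths came from a RefSeq gene table of the same build. CACNA1A was matched by its Ensembl ID; CACNA1B, CNIH2, SHISA6, GRIN1 and LRP1 are not analysed here.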

Additional observations from a re-analysis of the deposited data

How the results depend on the processing

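Results were recomputed under 19 alternatives, of which leaving out cluster 0, leaving out cluster 16 and dividing cluster 20 were chosen after seeing the data. Calls of CACNA2D1, CACNA2D2 and CACNB2 between the C-fibre and thermal side and the touch side held under all 19. Thinning to 1000 UMIs moved the calls of that comparison to 3, those over single groups to 19, those of KIT over ADCYAP1 to 0 and those of NTRK2 over NTRK3 to 2; thinning leaves few UMIs, which the minimum of 50 then drops. KIT over ADCYAP1 had 0 calls at resolution 0.5, with each nucleus grouped by its own markers and with each library clustered alone, 1 without nuclei above 50000 UMIs, and 1 to 3 without a library. Without library 3, CACNG2 and CACNG5 lost their calls there, and CACNA2D3 (log2 ratio -1.13) and CACNB4 (-1.11) were called lower. Without cluster 16, CACNA2D2 lost its call, and CACNB2 (-1.36) and CACNG4 were called. NTRK2 over NTRK3 had 2 at resolution 0.5 and 3 with each nucleus grouped by itself or each library alone. The group with the highest level was kept for 5 of 10 members at resolution 0.5, and for 6 with nuclei grouped by themselves, with libraries weighted equally and without library 4. The cause was not tested.

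Of 57 called ratios, 9 changed sign under some alternative, 15 times in all. CACNG2 in NTRK2 over NTRK3 stood at 2.38 with each nucleus grouped by itself, 0.60 with libraries alone, 0.61 without library 3 and 2.95 with cluster 20 divided, and in NTRK3 over the others at -1.03 and -0.55 under the first and the last. At resolution 0.5 CACNG4 stood at 0.29 (TRPM8) and -0.38 (ADCYAP1), CACNG3 at 0.74 (IL31RA), and CACNA2D3 at 0.44, CACNB3 at -0.49 and CACNB4 at 0.22 (all NTRK2). CACNG3 in IL31RA was 0.041 at resolution 1.5 and 0.010 with nuclei grouped by themselves, where CACNG5 in TRPM8 was 1.35. Of 53 ratios that were not called, 33 changed sign under some alternative, 97 times in all. Beside the 15 reversals of calls, 1549 values moved within the counting interval and 512 beyond it, and 14 gave no ratio; means over nuclei and over libraries carry no interval.

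No paired analysis was possible because no label ties nuclei to a pig. Depth limits the γ genes most: CACNG2 and CACNG5 have 142 and 88 UMIs, so their ratios rest on few nuclei. Grouping limits every comparison: of 1416 nuclei grouped by their own markers, 64.7% fell in the same group.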
